A study of Mus musculus with 8 samples.

Results

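The genes of antigen presentation by major histocompatibility complex (MHC) class II were followed in liver RNA from male adult ob/ob mice at 3 doses of leptin. The 6 genes are H2-Aa, H2-Ab1, H2-Eb1, H2-DMa and H2-DMb1 on chromosome 17 and Cd74 on chromosome 18. The genes were chosen by symbol. Of the 25697 probes on the array, 8 carry the symbols of 5 of the genes. Cd74 is listed under its older symbol Ii, with 2 probes, so that 6 genes and 10 probes were described. H2-Ab1 has 4 probes, and each of the other chromosome 17 genes has 1. All 10 probes were above background on all 8 arrays, so no gene was lost to the detection filter.

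Ob/ob mice make no functional leptin, the hormone of fat cells that reports energy stores to the brain, and all 3 groups share this genotype. Livers were taken after 12 days at 0 ng/hr (controls, arrays 1 to 3), 12.5 ng/hr (arrays 4 and 5) or 25 ng/hr leptin (arrays 6 to 8). The labels give no route, strain background or age beyond adult, and do not say that each array holds a separate animal, so the p-values measure the spread between these arrays. The agent field of the labels reads leptin for the 0 ng/hr arrays and untreated for the 25 ng/hr arrays, against the titles, sources and doses, which were followed. All directions below rest on the dose being right. The doses also run in the order of the chip's array positions, and dose and chip position cannot be told apart.

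MHC class II molecules are pairs of an alpha and a beta chain that carry peptides from engulfed proteins to the cell surface, where CD4+ T cells read them. Newly made pairs are held by the invariant chain, encoded by Cd74, which fills the peptide groove and guides them to the endosome. There proteases cut the invariant chain down to a short fragment, and the H2-DM protein exchanges this fragment for a peptide. In liver the pathway is known mainly from Kupffer cells, the resident macrophages, and from dendritic cells and B cells. Its genes are switched on together by the coactivator CIITA, which docks on factors bound to promoter elements named X and Y.

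The start regions of 3 genes are shown because they carry both elements in the same order. The sequences are the 120 bases before the RefSeq start site on build GRCm38.p6, 5′ to 3′ on the strand of the gene, at chr17:34153071-34153190 (plus strand, H2-DMb1), chr17:34287824-34287943 (minus strand, H2-Aa) and chr17:34305747-34305866 (plus strand, H2-Eb1). The first run of capitals marks a match to the X letters, GNAAC and TGANG with 2 or 3 bases between them, where N is any base, and the second a match to the Y letters, GATTGG.
H2-DMb1: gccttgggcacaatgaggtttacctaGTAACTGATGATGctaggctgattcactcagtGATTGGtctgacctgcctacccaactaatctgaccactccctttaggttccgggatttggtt
H2-Aa: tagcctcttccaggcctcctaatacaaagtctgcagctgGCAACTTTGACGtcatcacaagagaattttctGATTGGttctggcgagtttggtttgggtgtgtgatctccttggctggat
H2-Eb1: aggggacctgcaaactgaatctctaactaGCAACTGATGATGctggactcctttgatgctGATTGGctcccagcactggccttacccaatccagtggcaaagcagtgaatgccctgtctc

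The X match began 94 bases before the start site in H2-DMb1, 81 in H2-Aa and 91 in H2-Eb1. The matches were separated by 19, 20 and 18 bases. The letters were written down after these promoters had been seen, and were then searched on both strands of all 32851 RefSeq windows of 300 bases around a start. An X match was found in 1.81% of windows and a Y match in 16.1%. An X match followed within 30 bases by a Y match on the same strand was found in 19 windows (0.0578%), of 18 genes. These include the class II gene H2-Ob and 3 of the genes followed here. Of H2-DMa's 2 windows, 1 held a Y match and neither held an X match. H2-Ab1 and Cd74 have no entry in the table. A match to letters is a description and not a binding site.

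In the control livers the class II genes were lowest by group mean, and at 12.5 ng/hr all 6 stood above every control array. The kept probe of H2-Aa, the alpha chain of the I-A molecule, read 7.27, 7.80 and 7.02 on the 3 control arrays in log2 normalized signal. It read 8.67 and 8.58 at 12.5 ng/hr and 8.06, 8.68 and 7.99 at 25 ng/hr. Every treated array lay above every control array, and the 25 ng/hr arrays reached from below the 12.5 ng/hr arrays to their level. The log2 difference from the controls was 1.26 (SE 0.25) at 12.5 ng/hr, a 2.40-fold higher level, and 0.88 (SE 0.23) at 25 ng/hr, 1.84-fold. Neither passed limma's moderated test after Benjamini-Hochberg adjustment over all 10141 features, with adjusted p-values of 0.155 and 0.113.

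The kept probe of H2-Ab1, the beta chain that pairs with H2-Aa, read 8.61, 9.14 and 8.60 in the controls, 10.27 and 9.98 at 12.5 ng/hr, and 9.61, 10.14 and 9.16 at 25 ng/hr. The lowest array at 25 ng/hr was only just above the highest control. The log2 difference was 1.34 (SE 0.27) at 12.5 ng/hr, or 2.53-fold, and 0.85 (SE 0.25) at 25 ng/hr, or 1.81-fold (adjusted p = 0.162 and 0.143, limma). The other 3 probes of H2-Ab1, each fitted as a feature of its own, gave log2 differences of 1.09 to 1.16 at 12.5 ng/hr and of 0.68 to 0.97 at 25 ng/hr, so that all 4 probes ran the same way.

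H2-Eb1 encodes the beta chain of the second class II molecule, I-E. It read 7.57, 8.11 and 7.56 in the controls, 9.001 and 8.73 at 12.5 ng/hr, and 8.39, 8.97 and 7.93 at 25 ng/hr. Here the 25 ng/hr group overlapped the controls, since its lowest array fell below the highest control, while both 12.5 ng/hr arrays lay above every control. The log2 difference was 1.12 (SE 0.29, adjusted p = 0.230) at 12.5 ng/hr and 0.68 (SE 0.26, adjusted p = 0.222) at 25 ng/hr in limma's fit. Without array 7 the 25 ng/hr difference was 0.41 (adjusted p = 0.431), and over all alternatives the adjusted p ran from 0.0995 to 0.431.

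The kept probe of Cd74, the invariant chain, read 9.16, 9.57 and 8.97 in the controls, 10.31 and 10.34 at 12.5 ng/hr, and 9.71, 10.01 and 9.45 at 25 ng/hr. The 12.5 ng/hr arrays were above all others, and the 25 ng/hr group overlapped the controls. The log2 difference was 1.09 (SE 0.20, adjusted p = 0.142) at 12.5 ng/hr and 0.49 (SE 0.18, adjusted p = 0.217) at 25 ng/hr. The second Cd74 probe gave 1.03 and 0.59.

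H2-DMa and H2-DMb1 encode the alpha and beta chains of the peptide exchanger. H2-DMa read 6.33, 6.63 and 6.18 in the controls, 7.46 and 7.51 at 12.5 ng/hr, and 7.06, 7.42 and 7.07 at 25 ng/hr. The 3 groups did not overlap. H2-DMa was the only one of the 6 genes to pass the test, in 1 comparison: it rose by 0.81 (SE 0.14) on the log2 scale at 25 ng/hr, or 1.75-fold (adjusted p = 0.0461, limma). That call was lost without any 1 of the 8 arrays (adjusted p from 0.0529 to 0.131), and with median scaling (0.0841), with no detection filter (0.0761) and with only these 2 groups in the fit (0.0749), and over all alternatives the adjusted p ran from 0.0240 to 0.131. At 12.5 ng/hr the H2-DMa difference was larger, 1.11 (SE 0.16), with an adjusted p of 0.0828. The sizes depended on the background correction. With none, H2-DMa differed by 0.81 at 12.5 ng/hr and 0.57 at 25 ng/hr, and with the authors' scaled intensities by 0.83 and 0.53.

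H2-DMb1, the beta chain, read 5.51, 6.02 and 5.71 in the controls, 6.58 and 6.72 at 12.5 ng/hr, and 6.04, 6.46 and 6.09 at 25 ng/hr. Its groups did not overlap, but the lowest array at 25 ng/hr exceeded the highest control by little. The log2 difference was 0.91 (SE 0.18, adjusted p = 0.146) at 12.5 ng/hr and 0.45 (SE 0.16, adjusted p = 0.196) at 25 ng/hr. These differences depended on the background correction: with none, they were 0.56 and 0.26, and with the authors' scaled intensities they were 0.59 and 0.23.

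**Figure D1:**
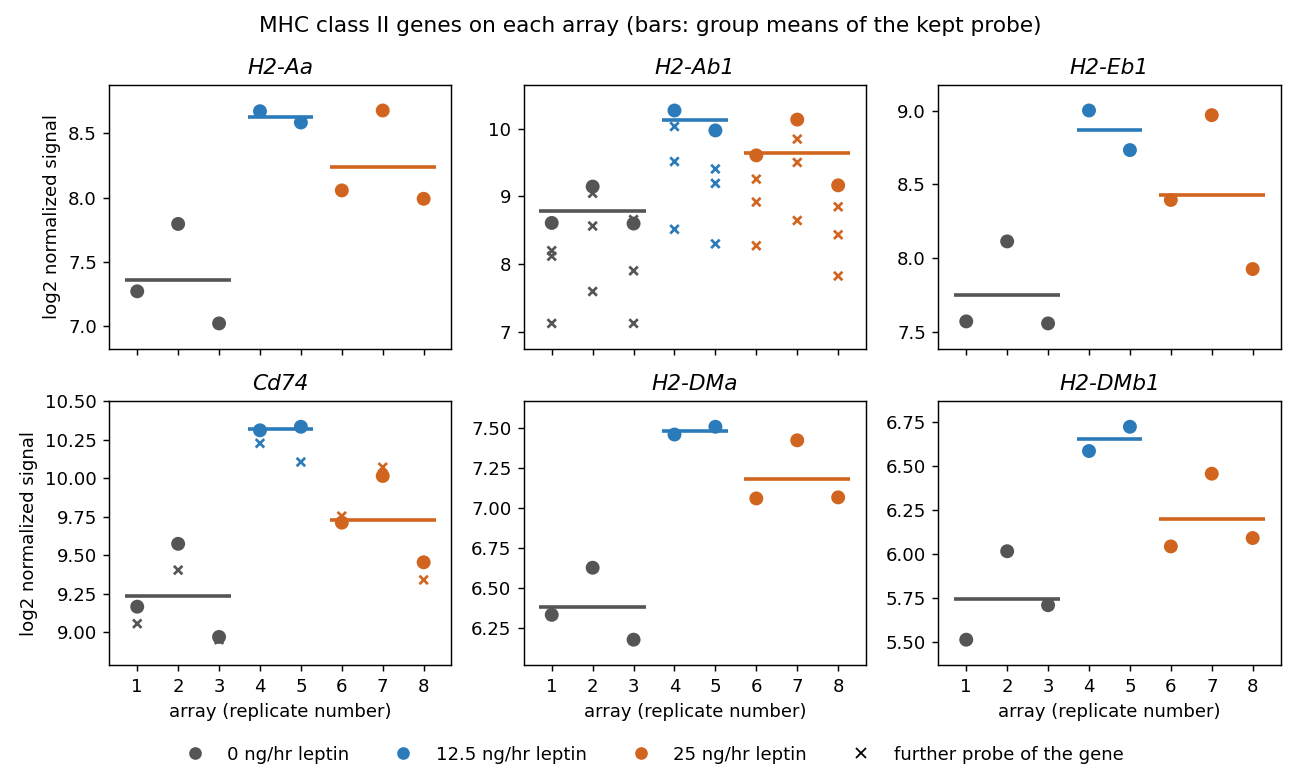
Log2 normalized signal of the 6 class II genes (vertical axes, each with its own range) on arrays 1 to 8, coloured by leptin dose. Dots are the kept probe, crosses are further probes of H2-Ab1 and Cd74, and bars are group means of the kept probe. In all 6 panels both 12.5 ng/hr arrays lie above all 3 control arrays.

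Counted over the genes, 1 of 6 passed an adjusted p of 0.05 as higher at 25 ng/hr than in the controls, where 0.621% of all features did (0.887% in either direction). In the 12.5 ng/hr comparison none of the 6 passed, and neither did any other feature (0% of 10141, with 1167 at an unadjusted p under 0.05). In the comparison of both doses together with the controls, again none of 6 and 0% of features passed, with 1403 features at an unadjusted p under 0.05, and the genes' adjusted p-values ran from 0.0543 for H2-DMa to 0.142 for H2-Eb1. At an unadjusted p under 0.05, all 6 genes were higher in each of these 3 comparisons. Among all features that share was 8.55% at 25 ng/hr, 6.58% at 12.5 ng/hr and 7.46% for both doses together.

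The groups did not overlap, with the treated arrays higher, for 6 of 6 genes at 12.5 ng/hr, where 14.9% of all features did so. At 25 ng/hr this held for 4 of 6 genes, against 11.2% of features, the exceptions being H2-Eb1 and Cd74. All 5 treated arrays exceeded all 3 controls for the same 4 genes, H2-Aa, H2-Ab1, H2-DMa and H2-DMb1, and for 4.48% of features. The median log2 difference of the 6 genes was 1.11 at 12.5 ng/hr, 0.74 at 25 ng/hr and 0.93 for both doses together. The medians over all features were 0.0022, -0.0025 and 0.0011. By size of log2 difference at 12.5 ng/hr, H2-Ab1 ranked 7, H2-Aa 10, H2-Eb1 21, H2-DMa 23, Cd74 25 and H2-DMb1 57 among the 10141 features.

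The difference was smaller at the higher dose in all 6 genes, but this step between the doses did not pass the test in any of them. The log2 differences of 25 minus 12.5 ng/hr ran from -0.60 for Cd74 to -0.30 for H2-DMa, with a median of -0.45 and adjusted p-values from 0.252 to 0.559. Of all features, 0.424% passed in this comparison and 0.306% as lower. At an unadjusted p under 0.05, Cd74 and H2-DMb1 were lower, 2 of 6 genes against 7.70% of features. The groups did not overlap, with 25 ng/hr lower, for Cd74, H2-DMa and H2-DMb1, 3 of 6 genes against 16.9% of features. The 95% confidence intervals of the fit reached from -1.06 to -0.14 for Cd74 and from -0.96 to 0.19 for H2-Aa. Without array 8 the median step was -0.26 and without array 7 it was -0.66. Comparisons with the 0 ng/hr group share its 3 arrays, so their sizes are given side by side only.

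**Figure D2:**
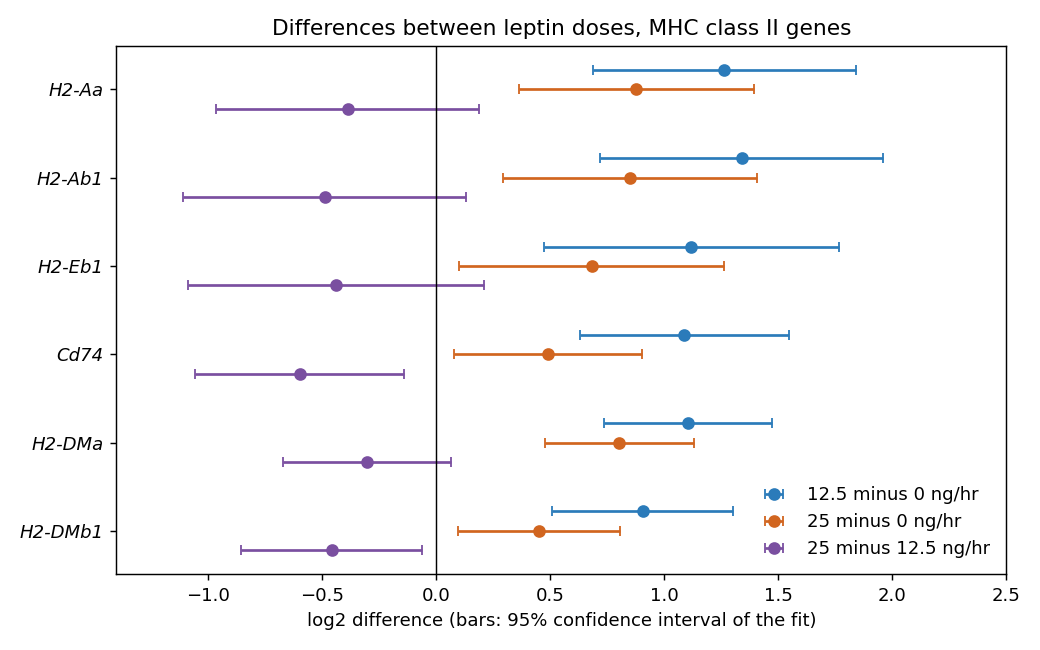
Log2 difference between doses for each class II gene, with the 95% confidence interval of limma's fit as bars. The differences from the controls lie between 0.91 and 1.34 at 12.5 ng/hr and between 0.45 and 0.88 at 25 ng/hr, and the differences between the doses lie between -0.60 and -0.30.

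The 6 genes ran alike from array to array within the groups as well as between them. Array 2 was the highest of the 3 controls for 10 of 10 probes, and array 7 the highest at 25 ng/hr for 10 of 10. Array 3 was the lowest control for 7 probes and array 1 for 3, while array 8 was lowest at 25 ng/hr for 8 probes and array 6 for 2. Of the 12.5 ng/hr arrays, array 4 was above array 5 for 7 of 10 probes. As a description, Pearson's r between pairs of the genes over the 8 arrays ran from 0.919 to 0.994, and from 0.748 to 0.999 for deviations from the group means. The highest of the latter was for H2-Ab1 and H2-Eb1. These points share arrays, normalization and RNA extracts.

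The features most like the mean of the 6 genes over the 8 arrays were Tbxas1 (r = 0.992), which encodes thromboxane synthase, Frmd4b (0.980), Wipf1 (0.980), a partner of the actin regulator WASP, and Rgs10 (0.972), a regulator of G protein signalling. They were followed by Srebf1 (0.972), a transcription factor of fatty acid synthesis, Prickle1 (0.965), Laptm5 (0.964) and Cd52 (0.963), the last a surface protein of leukocytes. Of the 10135 other features, 80 had an r above 0.9. These 8 features differed from the controls by 0.38 (Prickle1) to 0.98 (Cd52) in log2 signal at 12.5 ng/hr, and none passed the test.

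Other class II chains were mostly near or below background. H2-Ea, H2-Ob and H2-DMb2 were not well above background on any array, and H2-Oa was above it on 1 array. RefSeq lists H2-Ea as a transcribed pseudogene, and whether an I-E molecule forms in these livers was not measured. H2-Eb2 was above background on 3 arrays, with log2 differences of 0.01 (SE 0.14) at 12.5 ng/hr and 0.16 (SE 0.12) at 25 ng/hr. Among the regulators, Ciita, the coactivator itself, and Rfx5, a subunit of the factor that binds X, were not well above background on any array. Of the 6 regulators that could be tested, 0 passed in either direction at either dose, and their median difference was -0.22 at 12.5 ng/hr and -0.09 at 25 ng/hr. Rfxap, another subunit of the X binding factor, differed by -0.21 (SE 0.13) and 0.15 (SE 0.12). Nfya, a subunit of the factor that binds Y, was above background on all 3 controls and on no treated array, with a level in the controls at least 1.12-fold higher than at 12.5 ng/hr (adjusted p = 0.259) and at least 1.09-fold higher than at 25 ng/hr (adjusted p = 0.0916). This bound sets the control mean against the dim arrays' lowest signal above background, or the probe's own where higher. Nfyb differed by -0.23 and -0.12.

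The 5 class II genes of chromosome 17 lie in a row of antigen presentation genes on chromosome 17, interleaved with class I genes. Between H2-Oa and H2-Ea in RefSeq order, 11 genes were tested. The 5 class II genes followed here had a median log2 difference of 1.12 (range 0.91 to 1.34) at 12.5 ng/hr, and the 6 others 0.20 (range -0.13 to 0.51). At 25 ng/hr the medians were 0.81 (0.45 to 0.88) and 0.45 (-0.24 to 0.60). The 6 others are not all class I genes. They include Brd2 and the class II chain H2-Eb2, which was above background on only 3 arrays and differed by 0.01 and 0.16. Psmb9, a subunit of the immunoproteasome next to H2-DMb1, differed by 0.50 (SE 0.14) at 12.5 ng/hr and 0.60 (SE 0.12, adjusted p = 0.0701) at 25 ng/hr. Tap1, a chain of the peptide transporter for class I, differed by 0.51 (SE 0.14) and 0.46 (SE 0.13). Brd2, a chromatin reader in the same stretch, differed by -0.13 and -0.24.

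**Figure D3:**
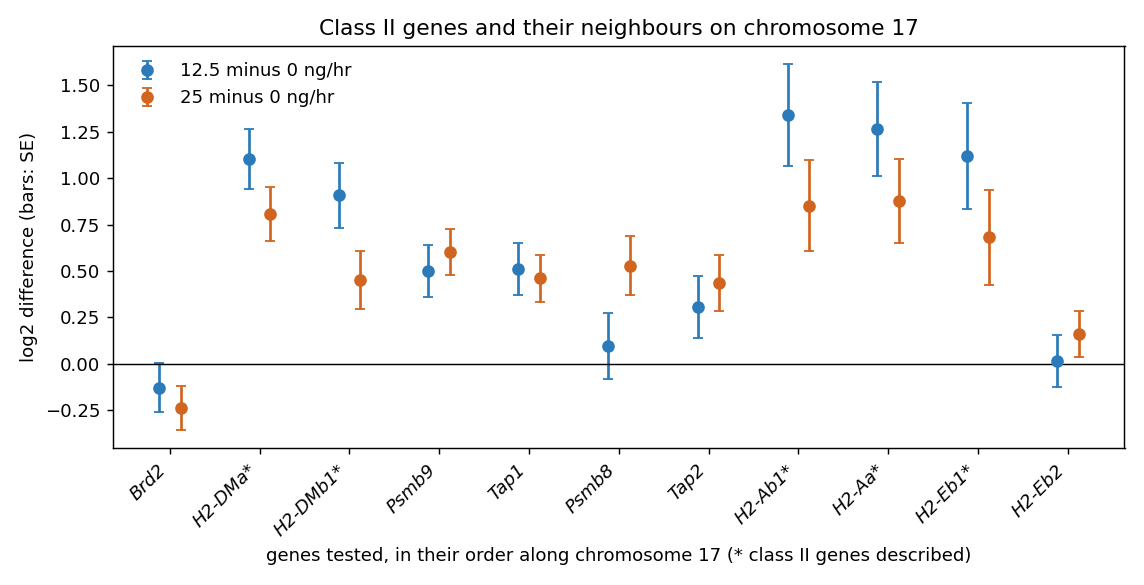
Log2 differences from the controls (dots, with SE as bars) of the 11 tested genes of the class II stretch, in their RefSeq order along chromosome 17. Asterisks mark the 5 class II genes followed here, whose 12.5 ng/hr values lie between 0.91 and 1.34, while the other 6 genes lie between -0.13 and 0.51.

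The further steps of the class II pathway were measured in lists of genes. Of 9 genes of endosomal processing, 0 passed at either dose, with median log2 differences of 0.08 at 12.5 ng/hr and 0.24 at 25 ng/hr. Of the 9, 3 and 2 were higher at an unadjusted p under 0.05 in limma's fit, against 6.58% and 8.55% of features. Ctss, the cathepsin that trims the invariant chain, differed by 0.45 (SE 0.14, adjusted p = 0.275) and 0.41 (SE 0.12, adjusted p = 0.145). Lgmn, an asparagine protease, differed by 0.49 and 0.25, and Ifi30, a thiol reductase of the endosome, by 0.48 and 0.08. Ctsb, Ctsd and Ctsh differed by -0.07 to 0.05 over both doses. Of the 3 costimulation genes tested, 0 passed, and 2 at 12.5 ng/hr and 1 at 25 ng/hr were higher at an unadjusted p under 0.05, against the same shares of features. Cd86, a ligand of CD28 on T cells, differed by 0.42 and 0.45, and Cd40 by 0.47 and 0.36.

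Interferon-gamma is a known inducer of class II genes. Of 10 tested genes of its response, 0 passed at either dose, and the medians were 0.26 at 12.5 ng/hr and 0.29 at 25 ng/hr. Since no feature passed at 12.5 ng/hr, none of these could. Of the 10, 3 and 5 were higher at an unadjusted p under 0.05 in limma's fit, against 6.58% and 8.55% of features. Cxcl9, a chemokine that draws T cells, differed by 0.96 (SE 0.43, adjusted p = 0.435) and 1.32 (SE 0.38, adjusted p = 0.143). Gbp3 and Gbp2, guanylate binding proteins, differed by 0.73 and 0.56 at 12.5 ng/hr and by 0.76 and 0.45 at 25 ng/hr. Of 9 genes of class I presentation, 0 passed, with medians of 0.21 and 0.37. Of the 9, 2 and 6 were higher at an unadjusted p under 0.05 (limma), against the same shares of features. Psmb9 differed by 0.50 at 12.5 ng/hr and 0.60 at 25 ng/hr, Tap1 by 0.51 and 0.46, Tap2 by 0.31 and 0.43, and Tapbp by 0.21 and 0.37. B2m, the light chain of class I, had the highest signal of the 9 and differed by 0.02 at both doses. At both doses the median over the 6 class II genes exceeded the medians of the pathway lists given here. The genes and lists were chosen with earlier results of these data known, so this order is a description and not a test.

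**Figure D4:**
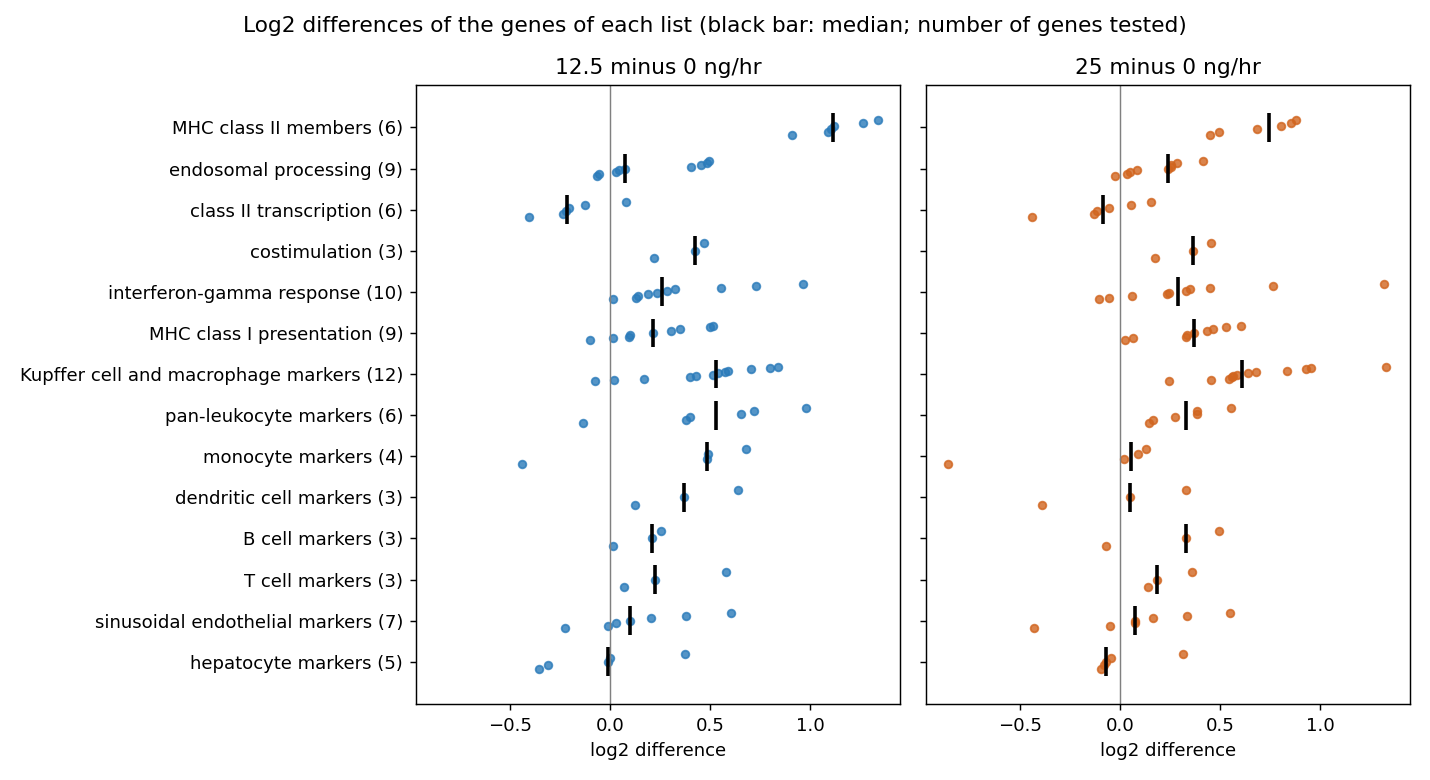
Log2 differences from the controls of every tested gene of each list (dots), with the list's median as a black bar and the number of genes in brackets, at 12.5 ng/hr (left) and 25 ng/hr (right). The class II genes have medians of 1.11 and 0.74, and the Kupffer cell and macrophage markers 0.53 and 0.61.

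Among markers of cells that carry class II molecules, some of those of Kupffer cells and macrophages also differed between the groups. In whole liver, more or fewer cells of a type and more or less RNA per cell cannot be told apart. Of 12 tested Kupffer cell and macrophage markers, 6 passed as higher at 25 ng/hr and 0 at 12.5 ng/hr, with medians of 0.61 and 0.53. Of all features, 0.621% passed as higher at 25 ng/hr and 0% at 12.5 ng/hr, so no marker could stand out there. At an unadjusted p under 0.05 in limma's fit, 11 and 9 of the 12 were higher, against 8.55% and 6.58% of features. Folr2, a folate receptor of macrophages, rose by 1.33 (SE 0.15, adjusted p = 0.0175) at 25 ng/hr, and Adgre1, the F4/80 antigen, by 0.95 (SE 0.15, adjusted p = 0.0307). Clec4f, a lectin of mouse Kupffer cells, rose by 0.83 (SE 0.13, adjusted p = 0.0311). Vsig4, Csf1r and C1qa were the other 3. Without array 2 no feature passed at 25 ng/hr, these markers included, and without array 3, 6 or 7 only 6, 2 and 3 features passed.

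The summed signal of the 12 markers ran from 3289 to 3648 in the controls, from 4868 to 5257 at 12.5 ng/hr and from 5039 to 5892 at 25 ng/hr. That of the 6 class II genes ran from 1331 to 1990, from 3395 to 3699 and from 1974 to 3330. By group mean, single markers did not share 1 order of the doses. Their differences from the controls ran from -0.07 (Timd4) to 0.84 (Cd68) at 12.5 ng/hr and from 0.24 (Cd68) to 1.33 (Folr2) at 25 ng/hr. Cd68, a lysosomal protein of macrophages, was thus higher at 12.5 ng/hr, like the class II genes, whereas Folr2 (0.57 and 1.33), Clec4f (0.40 and 0.83) and Cd163 (0.02 and 0.93) were higher at 25 ng/hr. Adgre1 (0.80 and 0.95), Csf1r (0.59 and 0.56), C1qb (0.54 and 0.54) and C1qc (0.70 and 0.64) differed by similar amounts at both doses. Between 12.5 and 25 ng/hr, 0 of the 12 markers passed in either direction, where 0.424% of all features did. Adjusted p-values of limma's fit for this step were 0.420 for Cd68, 0.120 for Folr2, 0.249 for Clec4f and 0.130 for Cd163. The differences between the markers and the class II genes were not tested.

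Of 6 tested pan-leukocyte markers, 0 passed at either dose, with medians of 0.53 at 12.5 ng/hr and 0.33 at 25 ng/hr. Their summed signal ran from 1997 to 2432 in the controls, from 3230 to 3486 at 12.5 ng/hr and from 2319 to 3246 at 25 ng/hr. Of the 6, 3 and 2 were higher at an unadjusted p under 0.05 in limma's fit, against 6.58% and 8.55% of features. Cd52 differed by 0.98 (SE 0.26) and 0.55 (SE 0.24), Coro1a by 0.72 and 0.16, and Laptm5 by 0.66 and 0.27, while Lcp1 differed by -0.13 and 0.14. Ptprc, which encodes CD45 and defines leukocytes, was not well above background on more than 1 array. The mean log2 signal of these markers was highest on array 2 among the controls (0.21 above the control mean) and on array 7 at 25 ng/hr (0.64), the arrays on which the class II genes were highest (0.34 and 1.07). The Kupffer list was 0.02 above its control mean on array 2 and 0.75 on both arrays 6 and 7. The part of either list in the class II differences was not tested.

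**Figure D5:**
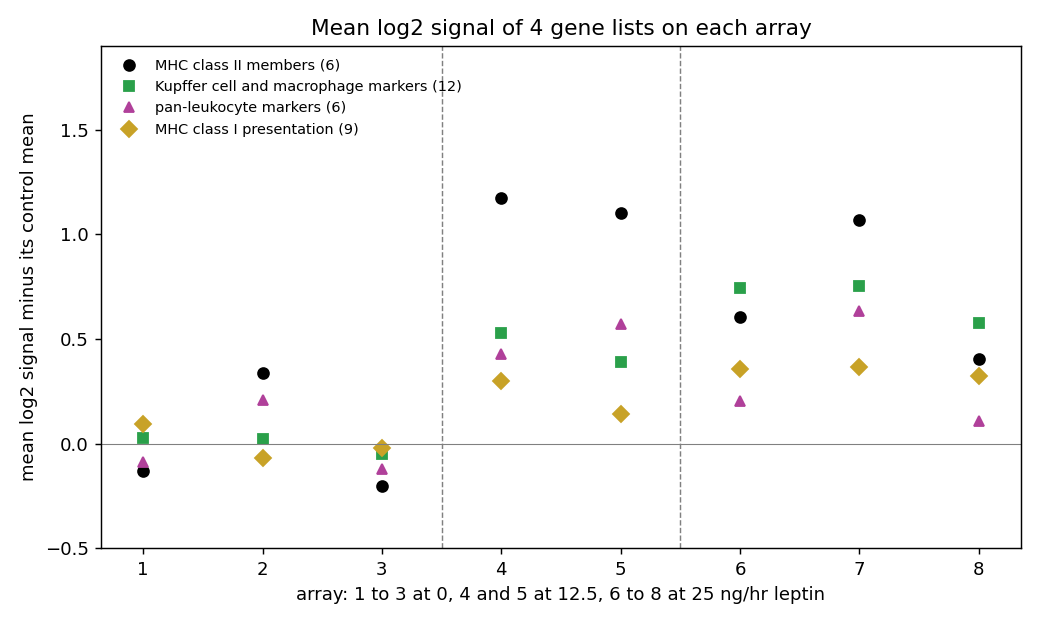
Mean log2 signal of 4 gene lists on each array minus the list's mean over the 3 control arrays. Dashed lines part the doses. The class II genes are at 1.17 and 1.10 on arrays 4 and 5 and at 0.60, 1.07 and 0.41 on arrays 6 to 8, while the Kupffer cell and macrophage markers are at 0.53 and 0.39 and at 0.75, 0.75 and 0.58.

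Markers of dendritic cells, B cells and T cells were near the limit of detection. Of 9 dendritic cell markers on the array, 3 were tested and 0 passed, and Itgax, Flt3, Xcr1, Cd209a and Ccr7 were not well above background on any array. Batf3, a transcription factor of cross-presenting dendritic cells, was above background on no control array, both 12.5 ng/hr arrays and 1 of the 25 ng/hr arrays, with a level at least 1.31-fold higher at 12.5 ng/hr than in the controls (adjusted p = 0.236). Zbtb46, a transcription factor of conventional dendritic cells, was above background on all 3 controls and both 12.5 ng/hr arrays but on no 25 ng/hr array, with a level in the controls at least 1.15-fold higher than at 25 ng/hr (adjusted p = 0.130). The summed signal of the 3 tested markers ran from 81 to 87 in the controls, from 94 to 127 at 12.5 ng/hr and from 79 to 94 at 25 ng/hr. Of 9 B cell markers on the array 3 were tested, with sums of 85 to 96, 98 to 102 and 102 to 120, and Ms4a1, Cd79a and Pax5 were not well above background on any array. Of 9 T cell markers 3 were tested, with sums of 75 to 84, 89 to 109 and 77 to 103, and Cd3g, Cd4 and Cd8a were not well above background on any array. Their part in the class II differences was not tested.

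The 4 tested monocyte markers had summed signals of 321 to 695 in the controls, 550 to 813 at 12.5 ng/hr and 436 to 534 at 25 ng/hr. Their medians were 0.49 and 0.05, 0 of the 4 passed at either dose, and they did not run alike. Plac8 differed by 0.48 (SE 0.25, adjusted p = 0.494, limma) at 12.5 ng/hr and 0.02 (SE 0.22) at 25 ng/hr. S100a8 differed by 0.68 (SE 0.52, adjusted p = 0.669) and 0.09 (SE 0.46), and S100a9 by 0.49 (SE 0.49, adjusted p = 0.757) and 0.13 (SE 0.44). Chil3 differed by -0.44 and -0.86 (adjusted p = 0.615 and 0.152, limma). Ccr2 was not well above background on any array. Sinusoidal endothelial markers had medians of 0.10 at 12.5 ng/hr and 0.07 at 25 ng/hr, with sums of 4544 to 5172, 5015 to 5418 and 5627 to 6933. These sums are mostly the signal of Clec4g, the brightest marker, so they do not stand for the whole list. Clec4g differed by 0.10 at 12.5 ng/hr and 0.55 (adjusted p = 0.0875, limma) at 25 ng/hr. Lyve1 differed by 0.60 and -0.43, Stab2 by 0.21 and 0.07, and Pecam1 by -0.01 and -0.05. Of the hepatocyte genes that define the labelled tissue, Ttr and Cyp2e1 were near 15 in log2 signal in all groups, although the probes of Alb and Tat were not well above background on any array. The 5 tested hepatocyte genes had medians of -0.01 and -0.07, and 0 passed at either dose. Apoa1 differed by 0.37 at 12.5 ng/hr and 0.32 at 25 ng/hr, Cps1 by -0.31 and -0.05, and Hnf4a by -0.36 and -0.07. Adjusted p-values of these 3 at 12.5 ng/hr were 0.457, 0.460 and 0.343 in limma's fit.

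The authors' deposited table of scaled intensities gives the same direction for all 10 class II probes. In it, the ratio of mean intensities of 12.5 over 0 ng/hr ran from 1.50 for H2-DMb1 to 2.39 for the brightest H2-Ab1 probe, and that of 25 over 0 ng/hr from 1.17 for H2-DMb1 to 1.75 for an H2-Ab1 probe. The authors' deposited table also puts 25 over 12.5 ng/hr below 1 for every class II probe, from 0.666 for a Cd74 probe to 0.891 for an H2-Ab1 probe.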

How the data were processed

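Liver RNA was labelled with biotin and hybridised to the 8 sections of 1 Illumina BeadChip, 1 array per labelled sample (3, 2 and 3 arrays at 0, 12.5 and 25 ng/hr). The authors deposited an unscaled linear intensity (average signal) and a detection p-value for each probe on each array. In a second table the authors scaled every array to a mean of 493 and gave mean intensities per group and their ratio. The deposited value table of the series matrix equals these scaled intensities. The scanner software is not given in the labels or files used here.

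The deposited intensities were corrected for background with the detection p-values, normalized by quantiles and turned into log2 values by limma's neqc with an offset of 16 (limma 3.58.1, R 4.3.3). A feature was tested if 2 or more arrays had its detection p-value below 0.05, and the probe with the highest mean signal was kept per gene. That left 10141 features, 9813 with a current symbol, while 894 probes had none. Symbols were updated with RefSeq's gene table of GRCm38.p6, and promoters came from RefSeq on that build. Of the 6 genes, 4 were found in the promoter table. On each array 12094 to 12783 probes (47.1% to 49.7%) were above background, mean unscaled intensities ran from 456 to 532, and medians of the scaled intensities from 68.4 to 74.2. The number of arrays limits the precision.

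All 8 arrays entered 1 fit of 3 group means (lmFit and eBayes), with Benjamini-Hochberg adjustment over all features and a threshold of 0.05, and the fit was tested on simulated data. Every adjusted p is from this fit unless another setting is named. The genes named from each list were those past the threshold, or otherwise up to 4 by smallest p for pathways and by highest signal for cell types. The genes, the lists and this rule were chosen with earlier results of these data known, and further genes named to show a list's range were picked after their values were seen. Summed signals add each kept probe's normalized signal on the linear scale. Figures were drawn with matplotlib version 3.10.9.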

Additional observations from a re-analysis of the deposited data

How the results depend on the processing

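Alternatives changed the scaling, the background correction, the detection filter, the probes per gene, the variance prior, array weights, the groups in the fit and the arrays. Each class II gene kept its direction in all of them: in 102 of 102 values for 25 minus 0 ng/hr, 102 of 102 for 12.5 minus 0, 102 of 102 for 25 minus 12.5 and 96 of 96 for both doses minus 0 ng/hr. Of these values 6, 2, 0 and 17 passed an adjusted p of 0.05.

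The number of class II genes called at 25 ng/hr was 1, and 0 with median scaling, no detection filter or only the groups compared. At 12.5 ng/hr it was 0, and 1 (H2-DMa) without background correction and with the authors' scaled intensities. For both doses it was 0, and 4 (H2-Aa, H2-Ab1, H2-DMa and Cd74) without background correction, with the authors' intensities and with a trended prior, and 1 with detection on all arrays, with every probe as a feature and with array weights. Leaving out 1 array gave 0 to 0 called genes in each single comparison and 0 to 2 for both doses, where 2 came without array 8. The genes' median ran from 0.51 to 0.90 at 25 ng/hr, from 1.01 to 1.28 at 12.5 ng/hr, from -0.66 to -0.26 between the doses and from 0.83 to 1.08 for both doses.

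Calls over all features at 25 ng/hr were 90, and 35 with median scaling, 182 without background correction, 188 with the authors' intensities, 48 without a filter, 206 with a trended prior and 15 with only the groups compared. At 12.5 ng/hr they were 0, and 9, 10 and 7 without background correction, with the authors' intensities and with a trended prior. Between the doses they were 43, and 77, 110 and 78 under the same settings and 17 without a filter. For both doses they were 0, and 80, 81 and 79, and 44 with detection on all arrays, 24 with every probe and 20 with array weights. Leaving out 1 array gave 0 (without array 2) to 143 (without array 8), 0 to 2, 0 (without array 4) to 56, and 0 to 86 (without array 8). The cause of these changes was not tested. Without array 4 or 5, the lone 12.5 ng/hr array is assumed to vary like the other groups. No paired analysis was possible because the groups share no replicate numbers.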
